A study of Homo sapiens with 20 samples.

Results

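HIF1A peaks were examined at 9 human genes of iron uptake, storage, export and heme metabolism, namely TFRC, TF, HMOX1, SLC11A2, SLC40A1, FTH1, FTL, CP and ISCU. HIF1A is the oxygen-regulated subunit of hypoxia-inducible factor 1, a transcription factor that binds the core RCGTG (ACGTG or GCGTG) of hypoxia response elements, and ChIP-seq maps where it sits on chromatin. A peak was assigned to a gene when its centre lay between 10 kb before the gene's start and 10 kb past its end, in the gene records of GENCODE release 44 on GRCh37. Of the 26484 peaks in the 8 lists, 24 lay in the windows of 7 of the 9 genes. These 24 peaks formed 15 separate regions once overlapping peaks were joined. SLC40A1 and ISCU had no peak in any list. The 9 windows were 21.6 to 89.6 kb long with a median of 43.2 kb, against a median of 47.2 kb over the 20163 protein-coding genes.

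The study profiled 4 human carcinoma cell lines, HCT116 and RKO from the colon and A549 and H460 from the lung. Cells of every line were kept in normoxia or placed in hypoxia (1% O2) for 24 hours, and chromatin was precipitated with an antibody to HIF1A in 2 biological replicates per line and condition, which gives 16 ChIP samples beside 1 normoxic input sample per line. The deposited peak lists merged the replicates, so that each line and condition has 1 list and no value carries a replicate spread. The lists held 287 (HCT116 normoxia) to 9171 (RKO hypoxia) peaks and rested on 41242090 to 81528303 tags each. The signal is the normalized tag count, the tags in a peak scaled to a library of 10000000 tags, and the 95% intervals given with it are exact Poisson intervals that cover counting error only. A list names called peaks alone, so a gene without a peak has no measured value there, and the fold over input required for a call differed between lines (6 in RKO, 7 in HCT116, 13 in A549 and 14 in H460). The free-text descriptions of the RKO and A549 input samples each name the other line, whereas their titles, cell line tags and file headers name the line itself, and the source name of all 4 inputs is HCT116 cells. Whether the inputs of RKO and A549 were exchanged was not tested, and it touches every fold over input in these lines. Since a call required such a fold, it also touches which peaks were called there. The source name bears likewise on H460.

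Cells take up iron when transferrin (TF) carrying ferric iron binds the transferrin receptor (TFRC) and is endocytosed, after which SLC11A2 (DMT1) moves the reduced iron into the cytosol. Iron that is not used is stored in ferritin, a shell of heavy (FTH1) and light (FTL) chains, or leaves through ferroportin (SLC40A1), helped by the ferroxidase ceruloplasmin (CP) that oxidizes it for loading onto transferrin. HMOX1 opens the heme ring and frees its iron, and ISCU is the scaffold on which mitochondrial iron-sulfur clusters are built. TFRC, TF, CP and HMOX1 are textbook hypoxia-responsive genes, and TFRC and the ferritins are also controlled after transcription by iron regulatory proteins.

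The sequences under the peaks that carry the results are shown first, read from GRCh37 in the 5′ to 3′ direction, with RCGTG on the printed strand, or its reverse complement (CACGT or CACGC), in capitals. The TFRC stretch is the 100 bases just before the gene record's start (chr3:195809025-195809124, minus strand), shown because TFRC was the gene with a peak in all 4 hypoxia lists.
TFRC: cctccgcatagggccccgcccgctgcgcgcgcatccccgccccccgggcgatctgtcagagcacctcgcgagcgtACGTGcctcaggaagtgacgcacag
The CP stretch (chr3:148943077-148943263, minus strand) joins the peaks of 3 hypoxia lists about 3.5 kb before the gene.
CP: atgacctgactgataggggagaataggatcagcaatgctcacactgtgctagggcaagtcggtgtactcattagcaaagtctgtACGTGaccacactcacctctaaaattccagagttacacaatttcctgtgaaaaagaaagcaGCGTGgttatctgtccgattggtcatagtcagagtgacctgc
The TF stretch (chr3:133461569-133461715, plus strand) is the H460 hypoxia peak before the gene, and the SLC11A2 stretch (chr12:51420184-51420276, minus strand) is the part of the gene's one peak that precedes its exons there.
TF: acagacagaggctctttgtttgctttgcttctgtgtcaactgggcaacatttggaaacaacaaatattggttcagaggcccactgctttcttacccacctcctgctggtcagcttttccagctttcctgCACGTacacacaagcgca
SLC11A2: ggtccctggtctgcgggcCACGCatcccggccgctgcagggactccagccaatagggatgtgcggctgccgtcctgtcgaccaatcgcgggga
The FTL stretches show the part of the H460 hypoxia peak that precedes the gene (chr19:49468531-49468565, plus strand), and then the hypoxia peaks past its end in H460 (chr19:49470840-49470986) and RKO (chr19:49470158-49470318), of which the last holds no RCGTG.
FTL start: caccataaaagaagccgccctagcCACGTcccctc
FTL downstream, H460: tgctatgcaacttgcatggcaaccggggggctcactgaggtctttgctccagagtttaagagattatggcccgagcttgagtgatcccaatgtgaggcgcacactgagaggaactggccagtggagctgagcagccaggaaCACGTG
FTL downstream, RKO: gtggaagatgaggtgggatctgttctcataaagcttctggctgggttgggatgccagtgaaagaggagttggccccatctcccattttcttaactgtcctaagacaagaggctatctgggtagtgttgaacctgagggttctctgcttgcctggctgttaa

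In hypoxia, at least 1 list held a peak for 7 of the 9 genes, whereas by the same rule 51.8% of all protein-coding genes were called. The genes called were TFRC alone in HCT116 (19.9% of all genes called in this list), TFRC, HMOX1, SLC11A2, FTL and CP in RKO (28.3%), TFRC, HMOX1, FTH1 and CP in A549 (21.5%), and TFRC, TF, FTL and CP in H460 (18.4%). Only TFRC was called in all 4 hypoxia lists, as were 3.26% of all genes. When a fold over input of at least 14 was asked of every list, TFRC was left in A549 and H460 only and no gene stood in all 4, and when HCT116 was left out, CP joined TFRC in the other 3 lists. When the count was limited to peaks within 2500 bp of the gene's start, TFRC, SLC11A2 and FTL were called in 1 or more hypoxia lists (22.1% of all genes) and TFRC again stood in all 4 lists (1.13%). In normoxia 4 genes were called in at least 1 list, against 13.1% of all genes. These were TFRC, TF, FTH1 and FTL in A549 (2.76%), FTL in RKO (6.93%) and FTL in H460 (3.81%), and none in HCT116 (1.29%). With the RKO and A549 lists left out, a choice made after seeing the data, 4 genes kept a hypoxia peak and 1 a normoxia peak.

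**Figure D1:**
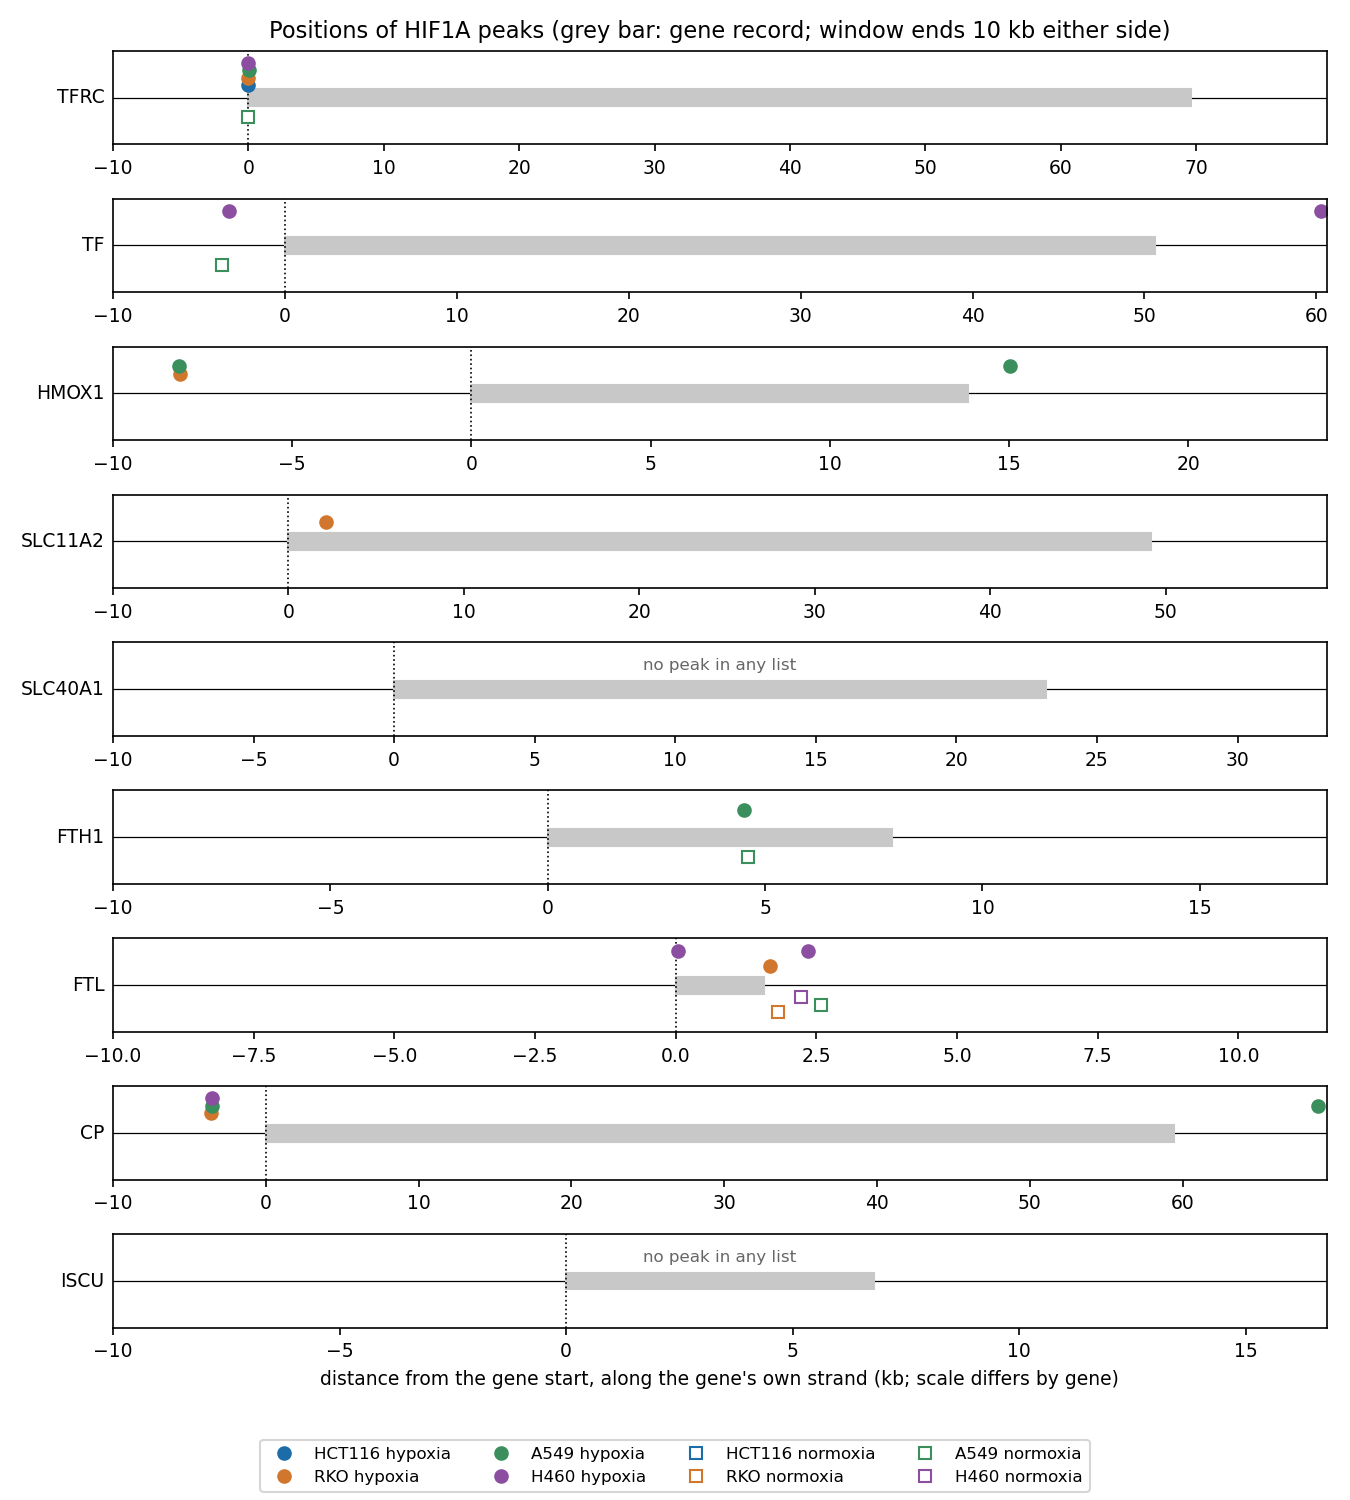
Positions of the 24 peaks along each gene, as the distance of the peak centre from the gene's start in kb on the gene's own strand (each row has its own scale), with hypoxia peaks as filled circles above the line and normoxia peaks as open squares below it. The TFRC peaks of 5 lists stack at the start, the CP and HMOX1 peaks before the gene are from hypoxia lists, with 1 further A549 hypoxia peak past the end of each, and 5 of the 6 FTL peaks lie just past the gene's end.

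The uptake genes held both the most widely shared peak and peaks seen in a single line. TFRC, the transferrin receptor (chr3:195739382-195809024, minus strand), had one region, chr3:195808925-195809103, in which the centres of 5 peaks fell within 35 bp of each other. Centres lay 34 to 69 bp before the start of the gene's canonical transcript and within 29 bp of the outermost start in the gene record, so that they fell in the first exon of a noncoding TFRC transcript or just before it. In hypoxia its normalized tag count was 24.1 in H460 (95% interval 19.9 to 28.8), 18.2 in RKO (15.1 to 21.8), 16.4 in HCT116 (13.8 to 19.5) and 15.7 in A549 (12.3 to 19.7). H460 was the highest, but its counting interval overlapped that of RKO, and the intervals of HCT116, RKO and A549 overlapped one another. Values are set side by side between lines with no test, since the efficiency of the precipitation can differ from line to line. The height relative to the rest of each list ordered the lines differently, with TFRC at rank 62 of 9171 in RKO, 118 of 3996 in HCT116, 336 of 3877 in H460 and 503 of 5408 in A549. The enrichment over the surrounding 10000 bp was 33.8-fold in H460, 24.8-fold in RKO, 21.7-fold in A549 and 20.7-fold in HCT116. The fold over input was 70.6 in H460, 16.5 in A549, 11.4 in RKO and 9.36 in HCT116, but the inputs held 1, 4, 6 and 6 tags there, so that this ratio rests on few counts. The single RCGTG of the region, an ACGTG on the gene's strand whose middle base lies 86 bp before the canonical start, was within the 200 bp centred on each of the 5 peaks.

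TF, which encodes the iron carrier itself (chr3:133464884-133515485, plus strand), was called in hypoxia in H460 only. Its peak 3242 bp before the gene had a normalized tag count of 13.7 (95% interval 10.7 to 17.4), ranked 853 of 3877 and was 22.8-fold over the local region. Its ACGTG, on the strand opposite to the gene, lay 56 bp from the peak centre. A separate A549 normoxia peak 3647 bp before the gene reached 3.39 (1.86 to 5.70), near the bottom of its list at rank 487 of 526, and held no RCGTG. The 2 peaks did not overlap. Both lay in an intron of ENSG00000291042, a longer gene record that spans the region. A second H460 hypoxia peak, with a normalized tag count of 3.84, fell 9662 bp past the end of TF in an intron of SRPRB and 164 bp from the start of ENSG00000285908, at the edge of the window.

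SLC11A2, the importer that carries iron out of the endosome (chr12:51373184-51422349, minus strand), had 1 peak, in RKO hypoxia (chr12:51420116-51420276). The peak lay 2153 bp inside the outermost gene record but only 29 bp before the start of the canonical transcript. With 24 tags it had a normalized tag count of 3.59 (95% interval 2.30 to 5.34), rank 2021 of 9171, and was 5.20-fold over the local region. The 200 bp around its centre held 4 GCGTG, in a GC-rich stretch (71.5% G and C).

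**Figure D2:**
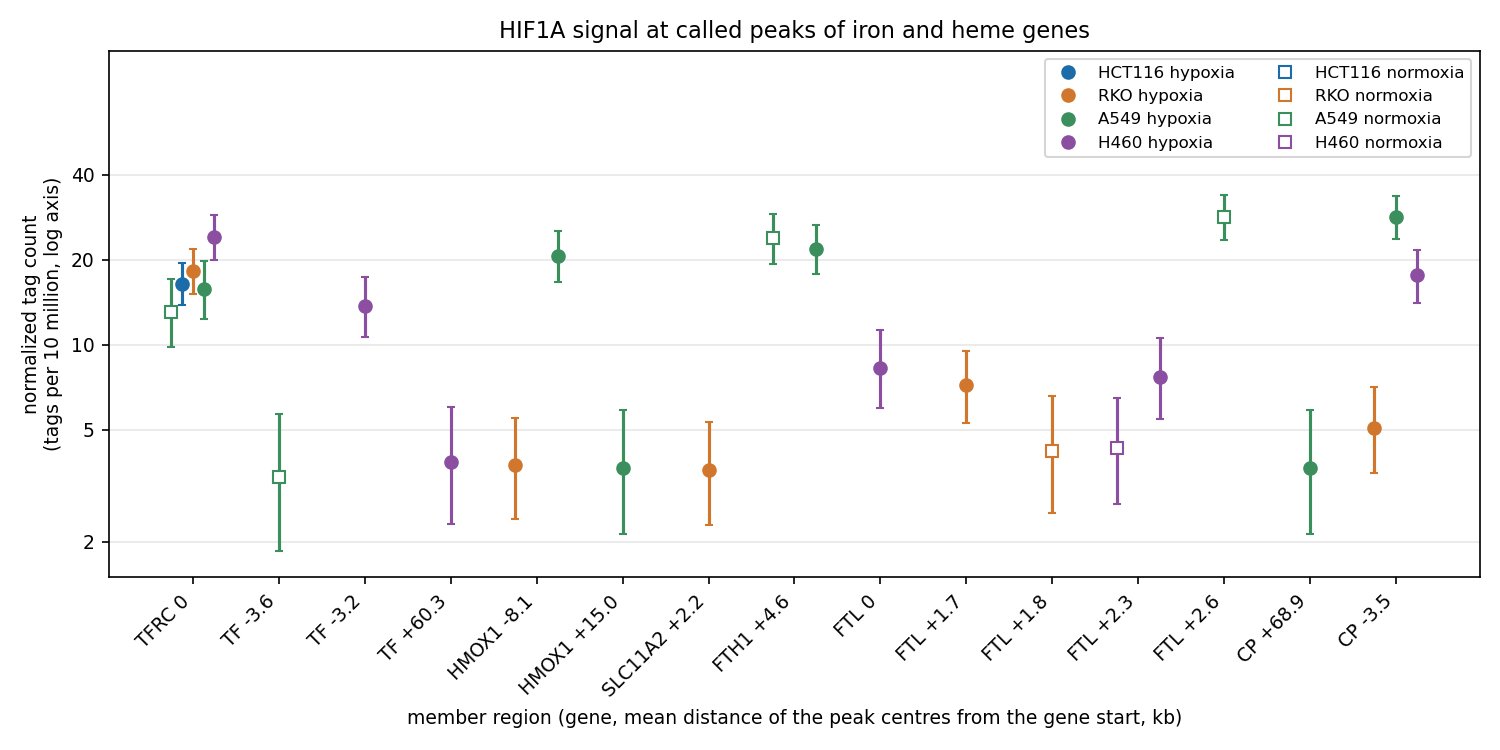
Normalized tag count (tags per 10000000 tags, log axis) of each of the 15 regions, labelled by gene and mean distance from the gene start in kb. Filled circles are hypoxia lists, open squares normoxia lists, and bars are 95% Poisson intervals of the counts; TFRC runs from 13.1 to 24.1, whereas CP spans 5.08 to 28.3 and HMOX1 3.74 to 20.6 at their upstream regions.

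At CP and HMOX1 the peaks recurred between lines at a distance from the gene. CP, the plasma ferroxidase ceruloplasmin (chr3:148880197-148939616, minus strand), had a region 3534 to 3567 bp before its start in 3 hypoxia lists and in no normoxia list. The normalized tag count there was 5.08 in RKO (95% interval 3.52 to 7.10), 17.6 in H460 (14.1 to 21.7) and 28.3 in A549 (23.7 to 33.6), and no peak was called in HCT116. The 3 intervals do not overlap, and A549 was the highest, with ranks of 190 of 5408 in A549, 582 of 3877 in H460 and 762 of 9171 in RKO. Relative to the length of its list, the RKO peak (top 8.31%) stood above that of H460 (top 15.0%) and below that of A549 (top 3.51%). The local enrichment was 22.8-fold in A549, 19.4-fold in H460 and 6.81-fold in RKO. Each of the 3 peaks held the same ACGTG and GCGTG, 3561 and 3500 bp before the gene and both on its strand. The region lies inside the long noncoding RNA gene ENSG00000286714, whose start, 1225 to 1258 bp away, is the nearest one, and the closest coding start is that of CP. A further A549 hypoxia peak with a normalized tag count of 3.65 (2.13 to 5.84) and no RCGTG fell 9455 bp past the end of CP, in an intron of HPS3.

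HMOX1, the heme-degrading enzyme heme oxygenase 1 (chr22:35776354-35790207, plus strand), had a region about 8.1 kb before its start in A549 and RKO hypoxia and in no normoxia list. The normalized tag count was 20.6 in A549 (95% interval 16.7 to 25.2) and 3.74 in RKO (2.42 to 5.52), counting intervals that do not overlap. Within the lists the peaks ranked 341 of 5408 in A549 (top 6.31%) and 1669 of 9171 in RKO (top 18.2%). As at TFRC, the values of the lines are set side by side with no test. The A549 peak was 28.0-fold over the local region, which only 3.94% of the peaks in its list reached, and stood over an input without a tag; the RKO peak was 5.72-fold over its local region. Both peaks contained the same ACGTG. Their centres lay 42 and 65 bp from the start of ENSG00000282602, a long noncoding RNA gene, in one of its exons. A second A549 hypoxia peak, 1170 bp past the end of HMOX1, had a normalized tag count of 3.65 on 17 tags, a local enrichment of 3.23-fold that 99.3% of the list equalled or passed, and no RCGTG.

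At the ferritin genes every normoxia peak lay inside or past the gene, and not at the start. At FTH1, the ferritin heavy chain (chr11:61727190-61735106, minus strand), both A549 lists had a peak and no other list did. The normalized tag count was 23.8 in normoxia (95% interval 19.3 to 29.0) and 21.9 in hypoxia (17.9 to 26.6), with the intervals largely overlapping. The normoxia peak ranked 15 of 526 and the hypoxia peak 306 of 5408. These peaks were high but not steep, with local enrichments of 6.85-fold and 6.87-fold that 44.5% and 45.6% of the peaks in their lists reached. Neither held RCGTG. They lay 1267 and 1171 bp past the end of the canonical FTH1 transcript, in an intron of a longer FTH1 transcript and in an exon of BEST1, which runs on the other strand, and so cannot be placed with 1 of the 2 genes from position alone.

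FTL, the ferritin light chain (chr19:49468566-49470136, plus strand), had 6 peaks in 5 lists, but only 1 was at its start. That peak, in H460 hypoxia, was centred 38 bp inside the 5′ UTR, had a normalized tag count of 8.29 (95% interval 5.95 to 11.2) and rank 1464 of 3877, and held an ACGTG 9 bp before the start. The other 5 peaks fell 102 to 1020 bp past the gene's end, before the end of the convergent gene GYS1. Of these 5 peaks, that of A549 normoxia was the highest at 28.4 (23.5 to 34.0), rank 12 of 526. The RKO values were 4.21 (2.54 to 6.58) in normoxia and 7.18 (5.29 to 9.51) in hypoxia. The H460 values were 4.32 (2.74 to 6.48) in normoxia and 7.68 (5.44 to 10.5) in hypoxia. A549 hypoxia had no peak called at FTL, so the site with the highest FTL signal has no hypoxia value. The A549 peak overlapped no peak of RKO or H460, and no RKO peak overlapped one of H460. The RKO peaks of the 2 conditions did not overlap, and those of H460 overlapped by 8 bp. The values past the gene's end thus come from mostly different bases and are not a comparison of lines at 1 site. The local enrichment of the 5 peaks was 4.36-fold to 9.71-fold, and 1 of the 5, in H460 hypoxia, held RCGTG, as CACGTG at its edge.

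SLC40A1, the iron exporter ferroportin (chr2:190425316-190448484, minus strand), had no peak in any list, also with the window widened to 50 kb on either side. ISCU, the iron-sulfur scaffold (chr12:108956358-108963144, plus strand), had no peak within 10 kb, and the nearest, in H460 hypoxia with a normalized tag count of 3.44, lay 41737 bp from the gene. A promoter sequence (250 bases before to 50 after the start, RefSeq, GRCh38.p14) was at hand for 6 of the 9 genes. These genes had 10 promoter entries, of which 7 held RCGTG (70.0%), beside 48.4% of all 35116 entries. It was present in the single entries of TFRC, FTL and ISCU, in 3 of 4 of SLC11A2 and 1 of 2 of TF, and not in that of SLC40A1. ISCU thus had the letters but no called peak.

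**Figure D3:**
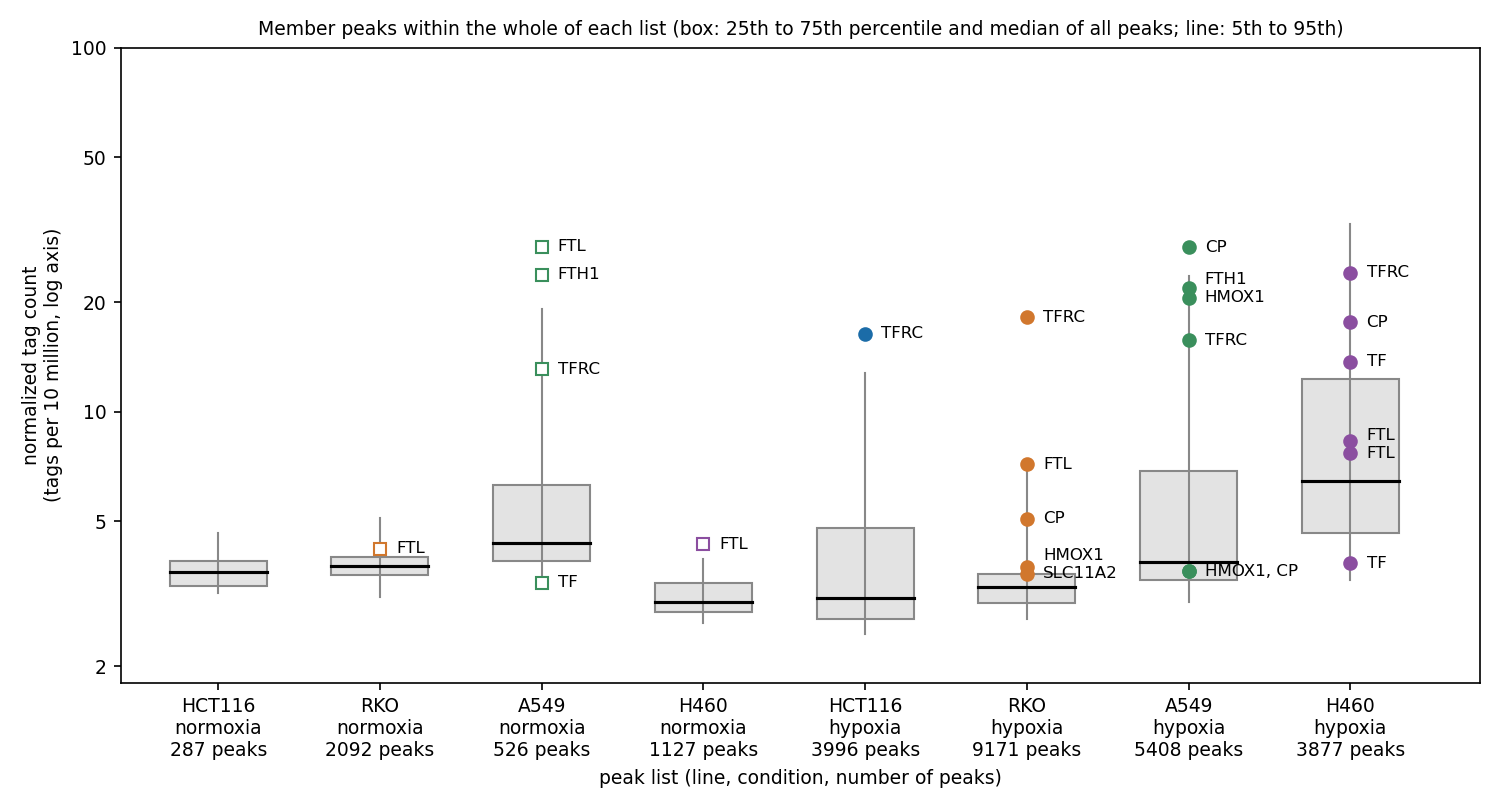
Normalized tag count (log axis) of each gene's peaks within its list, with grey boxes from the 25th to the 75th percentile of all peaks of the list, a black line at their median and grey lines from the 5th to the 95th percentile. TFRC lies above the box of every hypoxia list and above the grey line in HCT116 and RKO; CP in A549 hypoxia, FTL in RKO hypoxia and in A549 and H460 normoxia, and FTH1 in A549 normoxia also lie above the grey lines, while SLC11A2 and the RKO peak of HMOX1 sit near the box of their list.

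The comparison of hypoxia with normoxia was possible only where a line's 2 lists had overlapping peaks, which held for TFRC and FTH1 in A549 and for the region past FTL in H460. An exact conditional binomial test of the tags, two-sided and with Benjamini-Hochberg adjustment over all shared sites of the line, compared the 2 merged libraries and not the conditions, since no replicate values exist. At TFRC the 54 normoxia and 73 hypoxia tags gave a log2 ratio of 0.26 (95% interval -0.27 to 0.79, exact test, adjusted p = 0.384). At FTH1, with 98 and 102 tags, it was -0.12 (-0.53 to 0.30, exact test, adjusted p = 0.625). The 2 peaks overlapped by 108 bp at TFRC but by only 47 bp at FTH1, where the centres lay 96 bp apart, so that FTH1 was no longer a shared site when 50% of the shorter peak had to overlap. Neither differed beyond counting error, whereas 74.4% of the 176 sites shared by the A549 lists did, 129 of them higher in hypoxia and 2 lower. The median log2 ratio over the 176 sites was 1.27, and only 11.4% of them had a lower ratio than TFRC and 3.98% a lower ratio than FTH1. Relative to that median, TFRC stood at -1.01 and FTH1 at -1.38 on the log2 scale (exact test, adjusted p = 0.00082 and 9.24e-10), so the direction at TFRC depended on the scaling. The share of the 176 sites that passed this scaled test is not given. These p-values cover counting error only and do not set TFRC and FTH1 apart from the other sites. In H460 the 2 peaks past FTL overlapped by only 8 bp with centres 125 bp apart, so that their 23 normoxia and 38 hypoxia tags came from mostly different bases, and no change of 1 site is read from them. Their log2 ratio was 0.83 (0.05 to 1.65, exact test, adjusted p = 0.0366), where 82.2% of 45 shared sites passed the test and the median was 1.64, and per base of peak width it was 0.52 and did not pass (exact test, adjusted p = 0.242). Relative to the median it stood at -0.81 (exact test, adjusted p = 0.0704). No site was called in both conditions of all 4 lines, so no test over lines was run.

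**Figure D4:**
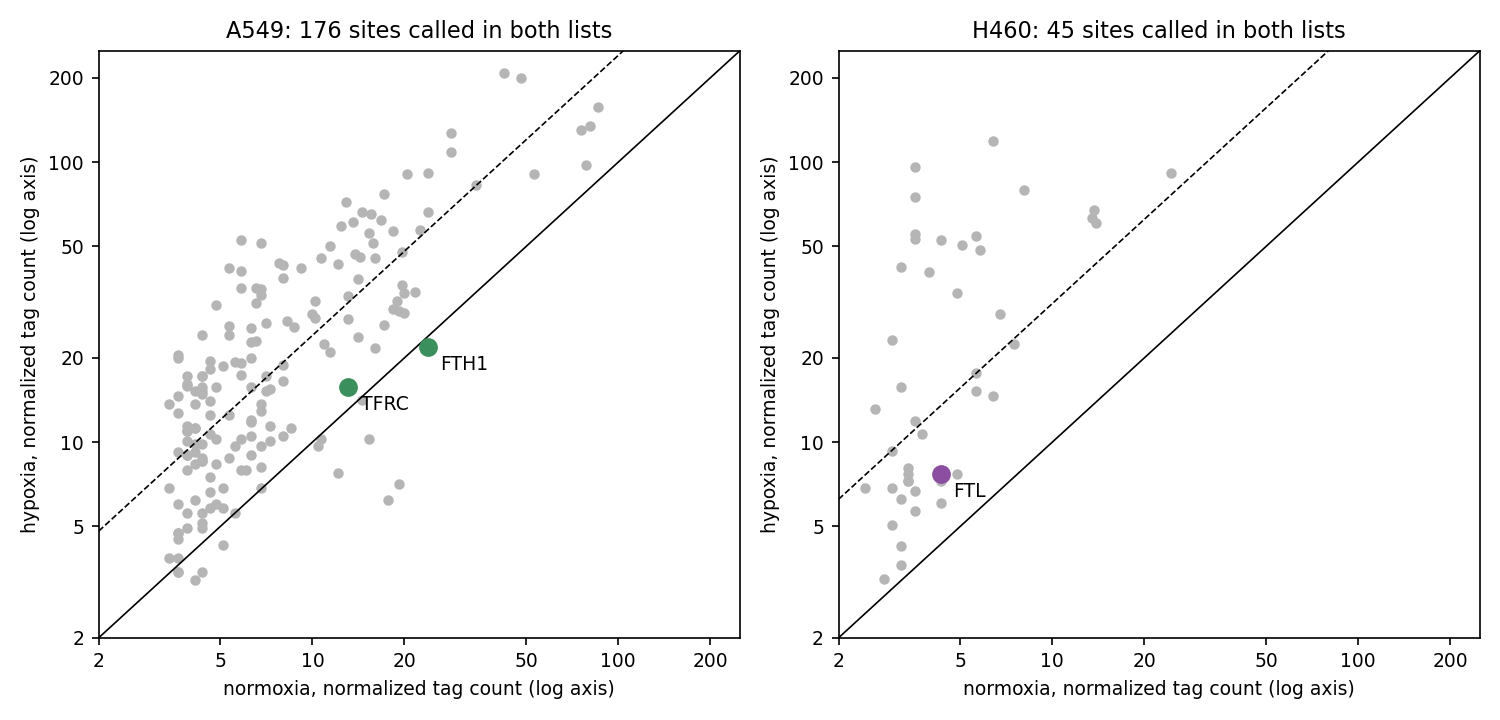
Normalized tag count in normoxia and hypoxia (log axes) at the sites called in both lists of A549 (left, 176 sites) and H460 (right, 45 sites), with the sites of the iron genes coloured. The solid line marks equal signal and the dashed line the median ratio of all sites; TFRC and FTH1 lie near the solid line and FTL between the 2 lines.

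RCGTG lay within the 200 bp at the centre of 14 of the 18 hypoxia peaks at these genes and of 1 of the 6 normoxia peaks, the latter at TFRC in A549. Peaks of different lists at the same site are counted separately. The same bases thus enter the hypoxia count 4 times at TFRC, 3 times before CP and 2 times before HMOX1. By list the hypoxia count was 1 of 1 in HCT116, where 65.1% of all peaks held it, 6 of 6 in H460 (76.9%), 4 of 5 in RKO (30.5%) and 3 of 6 in A549 (52.4%). In windows of the same length 2000 bp to either side of the peaks of these 4 lists the share was 19.5 to 24.2%. The 4 hypoxia peaks without it were those at FTH1, past HMOX1 and past CP in A549 and past FTL in RKO, all inside or past the gene. The hypoxia peaks also fell into 2 sets of local enrichment, as 8 of the 18, namely the 4 of TFRC, those of CP in A549 and H460, that of HMOX1 in A549 and that of TF in H460, were above 19-fold and all held RCGTG, while the other 10 were below 7-fold and 6 of these held it. The 8 peaks above 19-fold came from a single site each at TFRC, CP, HMOX1 and TF. The bounds of 19-fold and 7-fold were chosen after the values were seen, and these counts are descriptions, without a test. In normoxia the count was 1 of 4 in A549 (42.4% of all its peaks), 0 of 1 in RKO (17.7%) and 0 of 1 in H460 (15.1%).

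Other genes of iron and heme handling were counted by the same rule. Of 63 such genes, 39 (61.9%) were called in 1 or more hypoxia lists and 7 (11.1%) in normoxia, beside 51.8% and 13.1% of all genes. By role, at least 1 hypoxia list had a peak at 9 of 13 genes of uptake and trafficking, 4 of 6 of storage and chaperones, 4 of 8 of export and systemic control, 2 of 3 iron sensors, 11 of 16 of iron-sulfur cluster assembly, 5 of 10 of heme synthesis and 4 of 7 of heme uptake and breakdown. Peaks within 2500 bp of the start in at least 3 hypoxia lists were found at 6 genes (9.52%, beside 3.07% of all genes), PCBP1, HJV, IBA57, HSPA9, NFS1 and CPOX. The count is of genes and not of shared sites. At HJV the HCT116 and RKO peaks overlapped, with normalized tag counts of 2.7 and 3.44. Neither held RCGTG in the 200 bp at its centre. The H460 peak of HJV (10.9) lay apart from them, before the start, and held it. No NFS1 peak held RCGTG, whereas all such peaks of PCBP1, IBA57, HSPA9 and CPOX did. A peak within 2500 bp of the start in all 4 lists was found at 3 genes (4.76%, beside 1.13%). These were IBA57 and HSPA9, which act in iron-sulfur cluster assembly, and CPOX, the heme synthesis enzyme coproporphyrinogen oxidase. The highest IBA57 peak had a normalized tag count of 12.6 to 53.4 by line, HSPA9 9.44 to 33.4 and CPOX 5.68 to 15.5, beside 15.7 to 24.1 at TFRC. ISCU, the scaffold of the same cluster pathway, had no peak.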

How the data were processed

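The 8 deposited files are peak lists that the authors made from HIF1A ChIP-seq reads aligned to GRCh37 with Bowtie2 and called with HOMER 4.3 (findPeaks) on merged replicates against the input of each line, at a false discovery rate of 0.001, a local fold of at least 3 over 10000 bp and a fold over input of 6 to 14 by line. In these deposited lists the signal is the normalized tag count (tags per 10000000 in the library), and the fold over input and over the local region are ratios. Unscaled tags were recovered from the signal and the library total, and their sums matched the list headers in all 8 lists. An input without a tag is entered as 0.5.

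Peaks were assigned to genes by centre, joined where they overlapped by at least 1 bp, and searched for RCGTG on both strands. Shared sites were tested with exact binomial tests (scipy 1.17.1), checked on simulated counts. All peaks called in at least 2 lists, within 2500 bp of a start or alone at a gene were described. The genes, lists of genes and tests were chosen with earlier results of these data known. Replicates could not be analysed singly because the lists merge them. One sequence and 1 gene outside the 9 are not reported here.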

Additional observations from a re-analysis of the deposited data

Results flagged for a closer look

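The fold over input of the TFRC peak in H460 hypoxia was 70.59, far from the 9.36, 11.44 and 16.54 of the other 3 lines, with a gap to the nearest of them of 0.883 of the whole range. The input of H460 held 1 tag at this site and those of the other lines 4 to 6, and the normalized tag count and local enrichment of the same peak did not stand apart in this way. Of 6 measures compared over the 4 lines, 1 was marked, and chance marks about 1 in 20. Several of the measures describe the same TFRC peaks and are not independent. That rate was not tested for a ratio over so few input tags.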

How the results depend on the processing

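No paired analysis was possible because each list merges the replicates of its group, which also prevented leaving out single replicates. Of 99 alternative values, 71 kept their direction and call or stayed within 1.5 times of the value reported. Some of these could not move, such as the count of 0 in HCT116 normoxia under narrower rules. A common floor of 2.91 on the normalized tag count could not change a count either, since the lowest peak of these genes had 3.39. With a window of 2.5 kb on either side, the genes with a peak numbered 3 in RKO hypoxia and 2 in H460 hypoxia. With 50 kb, where different peaks of a gene may count, they numbered 3 in HCT116 hypoxia and 3 in all 4 hypoxia lists. Within 2500 bp of the start, the count was 3 in RKO, 1 in A549 and 2 in H460 hypoxia, 1 in A549 normoxia, 3 in at least 1 hypoxia list and 2 in at least 1 normoxia list. Counting only peaks whose nearest start was that of the gene gave 3 in RKO and 2 in A549 hypoxia. A fold over input of at least 14 left 0 in RKO normoxia, 0 in HCT116 hypoxia, 2 in RKO hypoxia and 0 in all 4 hypoxia lists. A local fold of at least 6 left 0 in RKO normoxia, 0 in H460 normoxia and 3 in RKO hypoxia. Without HCT116, 2 genes stood in the other hypoxia lists. With the lists of RKO and A549 left out (chosen after seeing the data), 4 genes had a hypoxia peak and 1 a normoxia peak, and leaving out A549 alone also gave 1 in normoxia. Regions called in both conditions of a line numbered 1 (TFRC in A549) when the overlap had to cover 50% of the shorter peak, which FTH1 and FTL did not reach. Scaled by the median of all shared sites, the log2 ratio of hypoxia over normoxia was -1.01 at TFRC and -1.38 at FTH1, both past the test, and -0.81 at FTL, which no longer passed. The share of all shared sites past the scaled test is not given. Per base of peak width the FTL ratio was 0.52, short of the threshold. The unequal thresholds on the fold over input and the few input tags limit every comparison of calls between lines.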
